A study of Mus musculus with 11 samples.

Results

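The nuclear genes of the respiratory chain were followed in mouse embryonic stem cells (ESCs) that lack Dicer and in ESCs that lack cMyc. Members were chosen by name. They are the coding RefSeq features whose symbol begins with Nduf, Uqcr or Atp5, is Sdha, Sdhb, Sdhc or Sdhd, or begins with Cox4, Cox5, Cox6, Cox7 or Cox8. By this rule 93 of the 48942 features in the Dcr table and 92 of the 39889 features in the cMyc table were members, and the gene absent from the second set was Cox8b. They comprise 36 complex I subunits, 8 complex I assembly factors, 4 complex II, 8 complex III, 20 complex IV and 17 complex V genes. Ndufa4 and its paralog Ndufa4l2 carry complex I names but were counted with complex IV, where the Ndufa4 protein is found.

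All libraries came from feeder-free ESCs of strain 129S4/SvJae kept on gelatin, and were poly(A)-selected and strand-specific. Wild-type cells (Dcr WT) gave 2 libraries, and 3 lines without Dicer, the enzyme that makes microRNAs (Dcr KO lines 1, 3 and 4), gave 1 library each. Cells with both cMyc alleles floxed but present (cMyc flox) and cMyc knockout cells (cMyc KO) gave 1 library each, from single-end instead of paired-end reads. The labels do not say whether each KO line is 1 clone, when the gene was lost, or whether the wild-type libraries came from separate cultures, so p-values measure only the spread between these samples. The deposited column of Dcr WT library 1 ends in 1 and those of the other 4 Dcr libraries in 2, and no label explains the ending. Without that library 46 members were lower and 0 higher. The 4 chromatin immunoprecipitation samples of the series were not analysed here.

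The respiratory chain sits in the inner mitochondrial membrane. Complexes I and II pass electrons from NADH and succinate to ubiquinone, complex III passes them on to cytochrome c, and complex IV gives them to oxygen. Complexes I, III and IV pump protons, and complex V, the ATP synthase, uses the proton gradient to make ATP. Each complex except II also holds subunits encoded by mitochondrial DNA, which the rule does not take. ESCs rely strongly on glycolysis, and their mitochondria are known to be immature in form.

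Values are normalised read counts, that is, reads divided by 1 factor per library. Depth ranged from 101815723 to 278006158 reads in the 5 Dcr libraries, lowest in Dcr WT library 1, and was 24660365 and 31633011 reads in cMyc flox and cMyc KO. Dicer1, the targeted gene, was at 20131 and 18792 in Dcr WT and at 8553, 9793 and 7743 in Dcr KO lines 1, 3 and 4. The labels do not say which part of Dicer1 is deleted. Of 6 ESC markers, 0 were called in either direction by limma, by edgeR or by DESeq2, with 1 at an unadjusted p under 0.05, and Pou5f1 stood at 214178 and 220556 in Dcr WT and at 216556 to 284597 in Dcr KO. Between the wild-type libraries Dppa5a differed 2.02-fold, Esrrb 1.60-fold and Nanog 1.58-fold, and Pou5f1, Sox2 and Zfp42 at most 1.03-fold. Fibroblast markers moved with the groups. Of 6 listed, 5 were tested, 3 were lower in Dcr KO (Col1a1, Col1a2 and Thy1) and 1 was higher (Dcn, a call lost without line 1 or line 3, adjusted p = 0.0839 and 0.0715). Their summed level was 5420 and 10592 in Dcr WT against 823 to 1277 in Dcr KO, Postn was at 0 in all libraries but Dcr WT library 2, and Lum was at 0 in lines 1 and 4 and at most 4.0 elsewhere. The part of these markers in the results below was not tested. In bulk RNA, fewer cells of a type and less RNA per cell cannot be told apart.

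Transcripts of the respiratory chain were lower in the Dcr KO lines as a group. Of 92 members tested, 47 (51.1%) were lower, 0 were higher and 45 were not called at an adjusted p under 0.05 (limma, Benjamini-Hochberg over all 42358 features). Cox8b, the remaining member, was at 0 in all 5 libraries. The share called lower was 14.8% over all features, 22.9% over the 16322 coding RefSeq features and 20.7% over the coding RefSeq features with a mean of at least 1000. The share called higher was 16.9%, 20.9% and 25.4% in the same order. The median log2 fold change of the members, on the log2(value + 1) scale used throughout, was -0.57, against -0.06 over coding RefSeq and 0.08 over all features. In 62 of 92 members every KO line was below both wild-type libraries, and in 3 (Ndufs4, Ndufs5 and Uqcrb) every KO line was above them. Over coding RefSeq features these orders were met by 35.5% and 31.3%, and over all features by 27.4% and 30.0%.

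The recovered reads gave 51 lower and 0 higher members in edgeR's quasi-likelihood test and 52 lower and 0 higher in DESeq2, and all 47 limma calls were among both. The sum over all members was 2432560 and 2179030 in Dcr WT against 2064510, 1893430 and 1765200 in Dcr KO lines 1, 3 and 4, a sum that weights members with many reads most. Without a variance trend in limma, 24 members were lower. Leaving out Dcr WT library 2 gave 55 lower and 3 higher (Atp5md, Cox5a and Uqcrb), and leaving out line 3 gave 32 lower and 0 higher.

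**Figure D1:**
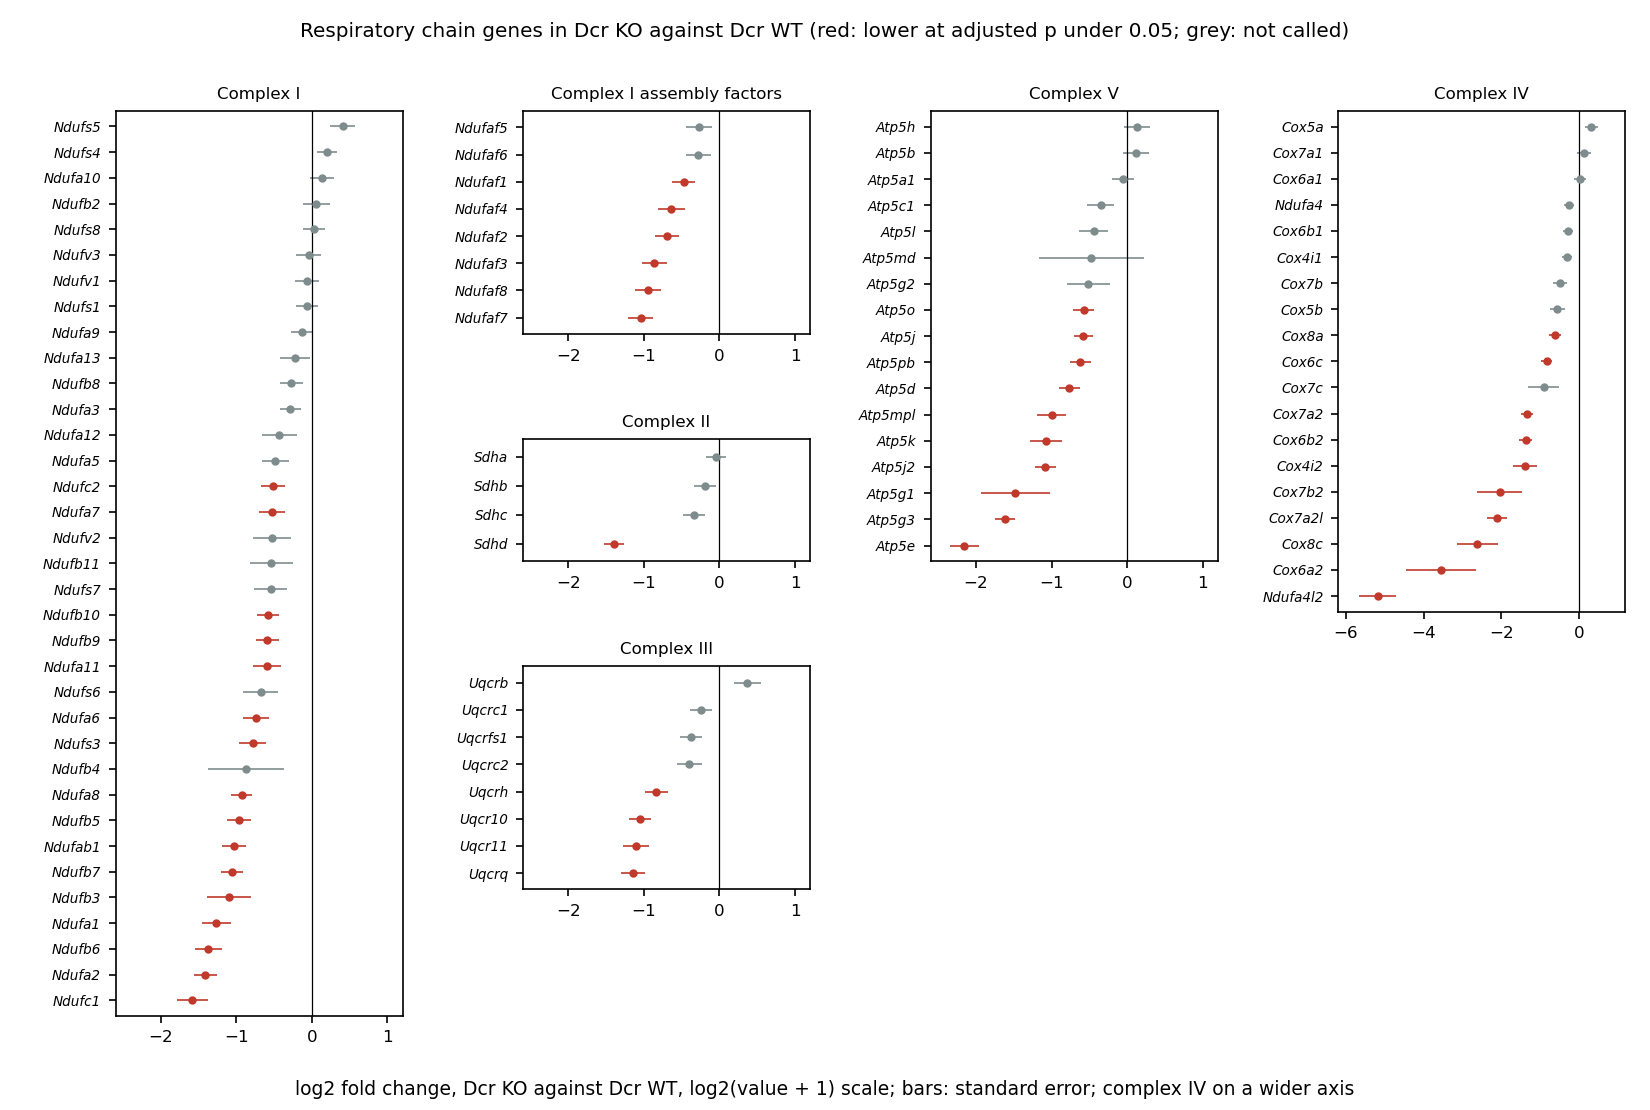
Log2 fold change of all but 1 of the tested respiratory chain genes in Dcr KO (3 lines) against Dcr WT (2 libraries), by complex, with the standard error as a bar. Red points are the 47 genes called lower, grey points 44 of the 45 not called, and complex IV has a wider axis because Ndufa4l2 stands at -5.18.

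Promoter sequences were examined because many members were lower together and nuclear respiratory genes are textbook targets of NRF1, GABP (an ETS factor) and YY1. E-boxes, which Myc can bind, were searched too. RefSeq windows on GRCm38.p6, from 250 bases before to 50 after each transcript's start, were found for 76 members, 81 windows in all. The motifs were CACGTG (E-box), TGCGCA (part of the NRF1 motif), ATGGCGG (part of the YY1 motif) and CCGGAAG (ETS core), on both strands. One promoter is shown per complex, from genes called lower with 1 window and a motif in the 150 bases before the start. Genes on 1 chromosome were not considered for this choice. Among the rest the gene with the largest decrease was taken, and complex IV had none. Capitals mark the motif on either strand, so CTTCCGG is the ETS core read on the other strand.
Ndufb6 (chr4:40279422-40279571, minus strand): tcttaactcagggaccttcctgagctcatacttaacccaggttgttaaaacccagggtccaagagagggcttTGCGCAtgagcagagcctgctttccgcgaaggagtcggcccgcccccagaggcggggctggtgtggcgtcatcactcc
Sdhd (chr9:50603850-50603999, minus strand): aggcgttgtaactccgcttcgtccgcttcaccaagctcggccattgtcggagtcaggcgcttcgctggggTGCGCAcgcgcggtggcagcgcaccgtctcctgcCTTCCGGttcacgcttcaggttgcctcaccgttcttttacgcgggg
Uqcr11 (chr10:80406822-80406971, minus strand): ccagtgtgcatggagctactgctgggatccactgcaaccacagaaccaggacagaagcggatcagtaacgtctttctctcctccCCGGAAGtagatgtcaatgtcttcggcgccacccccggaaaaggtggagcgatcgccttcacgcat
Atp5e (chr2:174464102-174464251, minus strand): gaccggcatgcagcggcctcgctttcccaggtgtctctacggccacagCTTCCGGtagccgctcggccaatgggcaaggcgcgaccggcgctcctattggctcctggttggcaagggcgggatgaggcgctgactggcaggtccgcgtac

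The Ndufb6 window shows the NRF1 part, the Uqcr11 and Atp5e windows the ETS core, and the Sdhd window both. Over all 81 member windows, 56.8% held at least 1 of the 4 motifs, against 23.4% of all 32851 promoter windows and 29.4% of those of coding RefSeq features. The NRF1 part was in 24.7% of member windows and 7.76% of all, the ETS core in 23.5% and 8.86%, and the YY1 part in 16.05% and 4.05%. The E-box was in 8.64% of member windows and 7.15% of all. Between the windows of members called lower (41) and not called (40), the NRF1 part was in 17.1% and 32.5%, the ETS core in 29.3% and 17.5%, the YY1 part in 17.1% and 15%, and the E-box in 12.2% and 5%. These shares describe letters in a window and say nothing of binding.

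Complex I, the largest, has core subunits that carry the flavin and the iron-sulphur clusters, and many accessory subunits around them. Of 7 nuclear core subunits 1 was lower (14.3%), with a median log2 fold change of -0.07. Of 29 accessory subunits 15 were lower (51.7%), with a median of -0.58. Without a variance trend 8 of the 29 were lower. Leaving out any 1 KO line left 9 of them lower, with the core count at 1. The share lower was 22.9% over coding RefSeq features and 14.8% over all features. The division into core and accessory was made after the values were seen, and the difference between the groups was not tested. The core gene that fell was Ndufs3, at 3679 and 5228 in Dcr WT and 2575, 2586 and 2500 in lines 1, 3 and 4 (log2 fold change -0.78, SE 0.18, adjusted p = 0.0098), and without a variance trend this call was lost (0.0837), leaving 0 of 7. Ndufv1, which binds NADH and the flavin, was at 22117 and 25923 against 26300, 20977 and 21809, and its groups overlapped. Ndufs1 and Ndufs8, both iron-sulphur proteins, had log2 fold changes of -0.07 and 0.03. Ndufs7 and Ndufv2 had -0.54 and -0.53 and were not called by limma (adjusted p = 0.0848 and 0.135), while edgeR called Ndufs7 lower (0.0440), which makes 2 of 7 core subunits in that test.

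Among the accessory subunits the largest decrease was that of Ndufc1, at 2509 and 3848 in Dcr WT and 1067, 959 and 1082 in Dcr KO lines 1, 3 and 4 (log2 fold change -1.59, SE 0.21, adjusted p = 0.000609). Ndufa2 followed at 7840 and 7989 against 3170, 2678 and 3108 (-1.41, adjusted p = 0.000206). Ndufb6, whose promoter is printed above, was at 7812 and 10697 against 3918, 3169 and 3544 (-1.37, adjusted p = 0.000604). The KO lines of all 3 genes lay below both wild-type libraries. Ndufa1, Ndufb7, Ndufab1 (the mitochondrial acyl carrier protein), Ndufb5 and Ndufa8 were lower by log2 fold changes of -1.27, -1.05, -1.03, -0.97 and -0.93.

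Ndufb3, Ndufa6, Ndufa11, Ndufb9, Ndufb10, Ndufa7 and Ndufc2 were also lower, with log2 fold changes of -1.10, -0.74, -0.59, -0.59, -0.58, -0.53 and -0.52. Each of these calls was lost in at least 1 fit that left out a library. Such a fit has fewer libraries, so a call can be lost with little change in the fold, as for Ndufc2 without line 3 (-0.53). Without Dcr WT library 1, Ndufa11, Ndufa7 and Ndufb9 were no longer called (log2 fold change -0.29, -0.27 and -0.41). Without any 1 KO line, Ndufa11, Ndufa7, Ndufb9 and Ndufb3 were not called, with adjusted p from 0.0544 to 0.140. Ndufa6 was lost without line 1 (adjusted p = 0.0588) or line 4 (0.0519), Ndufb10 without line 1 (0.0578) or line 3 (0.0596), and Ndufc2 without line 3 (0.111) or line 4 (0.0973). Ndufb3 differed between the wild-type libraries, at 2937 and 6616, and its log2 fold change was -1.68 without library 1 and -0.51 without library 2.

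The accessory genes not called included Ndufs5, a subunit on the intermembrane-space side, with the highest log2 fold change of any member, 0.41 (adjusted p = 0.0951). It was at 847 and 960 in Dcr WT and 1201, 1205 and 1183 in the KO lines, all above wild type. Ndufs4 was at 8797 and 8342 against 9923, 9590 and 10071 (0.20, adjusted p = 0.268). Ndufs6, a zinc-binding subunit, was at 5381 and 9791 against 4812, 4746 and 4077, with a log2 fold change of -0.68 that missed the threshold in limma (adjusted p = 0.0509) and passed it in edgeR (0.0229). Ndufa10 and Ndufa9 had 0.14 and -0.13.

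Assembly factors build complex I without staying in it. Of 8 such members 6 were lower (75%, against 22.9% of coding RefSeq features). All 8 had a log2 fold change below 0, and the median was -0.66. Ndufaf7, a methyltransferase, was at 5611 and 6328 in Dcr WT and 3105, 3125 and 2482 in the KO lines (-1.04, SE 0.16, adjusted p = 0.00163). Ndufaf8 was at 2881 and 3010 against 1778, 1445 and 1385 (-0.95, adjusted p = 0.00331), and Ndufaf3 at 5474 and 4324 against 2565, 2628 and 2842 (-0.86, adjusted p = 0.00392). For these 3 the groups did not overlap, and the Ndufaf3 call was lost without a variance trend (0.0555). Ndufaf2, Ndufaf4 and Ndufaf1 were lower by -0.69, -0.64 and -0.48. Ndufaf2 was not called without line 3 (adjusted p = 0.0576), Ndufaf4 without Dcr WT library 1, line 3 or line 4 (0.0718, 0.0779 and 0.08), and Ndufaf1 without Dcr WT library 2 or any 1 KO line (0.0613 to 0.143). Ndufaf5 and Ndufaf6 had -0.27 and -0.28 and were not called.

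In complex II, succinate dehydrogenase, which is also an enzyme of the citric acid cycle, 1 of 4 subunits was lower. That share, 25%, was near the 22.9% of coding RefSeq features. Sdhd, a membrane anchor, was at 32417 and 31147 in Dcr WT and 12190, 11533 and 12523 in Dcr KO lines 1, 3 and 4, a 2.63-fold difference of means (log2 fold change -1.40, SE 0.13, adjusted p = 0.000113). The libraries of each group lay close together, so the gap was far wider than the spread within either. Sdha, the flavoprotein that oxidises succinate, was at 50553 and 51426 against 53596, 47968 and 47271 (-0.04, adjusted p = 0.834). Sdhb, the iron-sulphur subunit, was at 21870 and 18402 against 19020, 17272 and 16486 (-0.19), and Sdhc, the other anchor, at 30373 and 24901 against 23634, 21365 and 20389 (-0.34, adjusted p = 0.108). The Sdhc groups did not overlap and those of Sdha and Sdhb did.

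Complex III is described by its large and its small subunits, a grouping also made after the values were seen, and the difference between them was not tested. The core proteins Uqcrc1 and Uqcrc2 and the Rieske iron-sulphur protein Uqcrfs1 had log2 fold changes of -0.25, -0.40 and -0.38, and 0 of these 3 was called by limma, edgeR or DESeq2, with 2 at an unadjusted p under 0.05. In each of them every KO line was nevertheless below both wild-type libraries. With libraries scaled to equal totals limma called all 3 lower, so this count rests on the scaling. Of the 5 small subunits 4 were lower (80%, against 22.9% of coding RefSeq features), and the median of the 5 was -1.05. Uqcrq, a membrane subunit beside cytochrome b, was at 30359 and 28541 in Dcr WT and 14667, 14208 and 11334 in the KO lines (-1.14, SE 0.15, adjusted p = 0.000734). Uqcr11, whose promoter is shown above, was at 12827 and 11248 against 4554, 6225 and 6085 (-1.11, adjusted p = 0.00159). Uqcr10 was at 32290 and 29308 against 13026, 16478 and 15270 (-1.05), and Uqcrh, the hinge protein that helps cytochrome c dock, at 14227 and 14875 against 9337, 7436 and 7767 (-0.84, with the call lost without a variance trend, adjusted p = 0.0571). For these genes the lowest wild-type value was well above the highest KO value. Uqcrb, which contributes to the ubiquinone site, was at 4693 and 6681 against 7202, 7802 and 6702 (0.37, adjusted p = 0.142), and the lowest KO line stood only just above wild-type library 2. The summed level of the small subunits was 94397 and 90653 in Dcr WT and 48787, 52148 and 47159 in Dcr KO.

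Complex IV, cytochrome c oxidase, had the widest range of fold changes. Of 11 common nuclear subunits 3 were lower (27.3%, against 22.9% of coding RefSeq features). This count was 5 in edgeR and in DESeq2, 8 with libraries scaled to equal totals and 2 without a variance trend. Cox7a2 was at 27144 and 21151 in Dcr WT and 10004, 9581 and 8752 in Dcr KO (log2 fold change -1.35, SE 0.15, adjusted p = 0.000322). Cox6c was at 13002 and 14066 against 8076, 7622 and 7254 (-0.82, adjusted p = 0.0021), and Cox8a at 50664 and 51677 against 37060, 36092 and 28637 (-0.60, adjusted p = 0.0157, or 0.0585 without line 3). The regulatory subunit Cox4i1 was at 99080 and 99232 against 83542, 80677 and 76727 (-0.30, adjusted p = 0.102), without overlap. Cox5a had the highest log2 fold change of complex IV, 0.32, at 33666 and 44602 against 42577, 48989 and 54691, with overlap (adjusted p = 0.173). Cox6a1 and Ndufa4 had 0.03 and -0.26, and Cox5b, Cox6b1, Cox7b and Cox7c had -0.55, -0.28, -0.49 and -0.90, none of them called by limma. Cox7b was lower in edgeR (adjusted p = 0.0442) and DESeq2 (0.0474), Cox7c in edgeR (0.0345) and Cox5b in DESeq2 (0.0370). Cox7c was at 2929 in wild-type library 1 and 9170 in library 2, on both sides of line 1.

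Cox7a2l, a factor that joins complexes III and IV into supercomplexes, was at 31043 and 20028 in Dcr WT and 7441, 6114 and 4255 in Dcr KO lines 1, 3 and 4. Its mean was 4.30-fold lower (log2 fold change -2.11, SE 0.25, adjusted p = 0.000404), the second largest fold among members with a mean of at least 1000 after Atp5e. The lowest wild-type library stood far above the highest KO line.

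Some complex IV subunits have isoforms known mainly from particular tissues or states, such as heart and skeletal muscle, lung and testis, or low oxygen. Of 8 listed, Cox8b was at 0, and 6 of the 7 tested were lower, with a median of -2.04. That share was 85.7%, against 22.9% of coding RefSeq features. Ndufa4l2, a paralog of Ndufa4 known to rise in low oxygen, was at 1185 and 435 in Dcr WT and 15.97, 28.3 and 14.5 in Dcr KO, a 41.3-fold difference of means (log2 fold change -5.18, SE 0.49, adjusted p = 0.000114). All KO lines were far below both wild-type libraries, although these differed 2.73-fold, and the log2 fold change was -4.46 without wild-type library 1 and -5.91 without library 2. Cox6b2, the testis isoform, was at 11803 and 9978 against 3645, 4776 and 4284 (-1.37, adjusted p = 0.000423). Cox4i2, known from lung, was at 247 and 226 against 109, 68.7 and 95.7 (-1.39, adjusted p = 0.00865).

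Cox8c was at 76.4 and 57.5 in Dcr WT against 7.10, 12.2 and 11.5 in Dcr KO (-2.61, adjusted p = 0.00521). Cox6a2, a heart and muscle isoform, was at 44.3 and 23.7 against 2.66, 0 and 5.36 (-3.55, adjusted p = 0.0168), but its fold was -2.79 without line 3, and the call was lost without wild-type library 1 (adjusted p = 0.0879) or line 1 (0.0546). Cox7b2 was at 40.2 and 94.0 against 23.1, 11.5 and 10.7 (-2.04, adjusted p = 0.025). Its log2 fold change was -2.64 without wild-type library 1 and -1.44 without library 2, and the call was lost without library 2 (adjusted p = 0.134), line 3 (0.0852) or line 4 (0.0844). Cox7a1, a heart and muscle isoform, was not called, at 1448 and 1355 against 1349, 1506 and 1806 (0.14, adjusted p = 0.588). Of the 7 common paralogs of this list 2, Cox7a2 and Cox8a, were lower, and the median of the 7 was -0.30. With libraries scaled to equal totals 6 of the 7 common paralogs were lower, as were 6 of the isoforms. Without a variance trend these counts were 1 and 4. Whether isoforms and common paralogs differ in response was not tested.

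**Figure D2:**
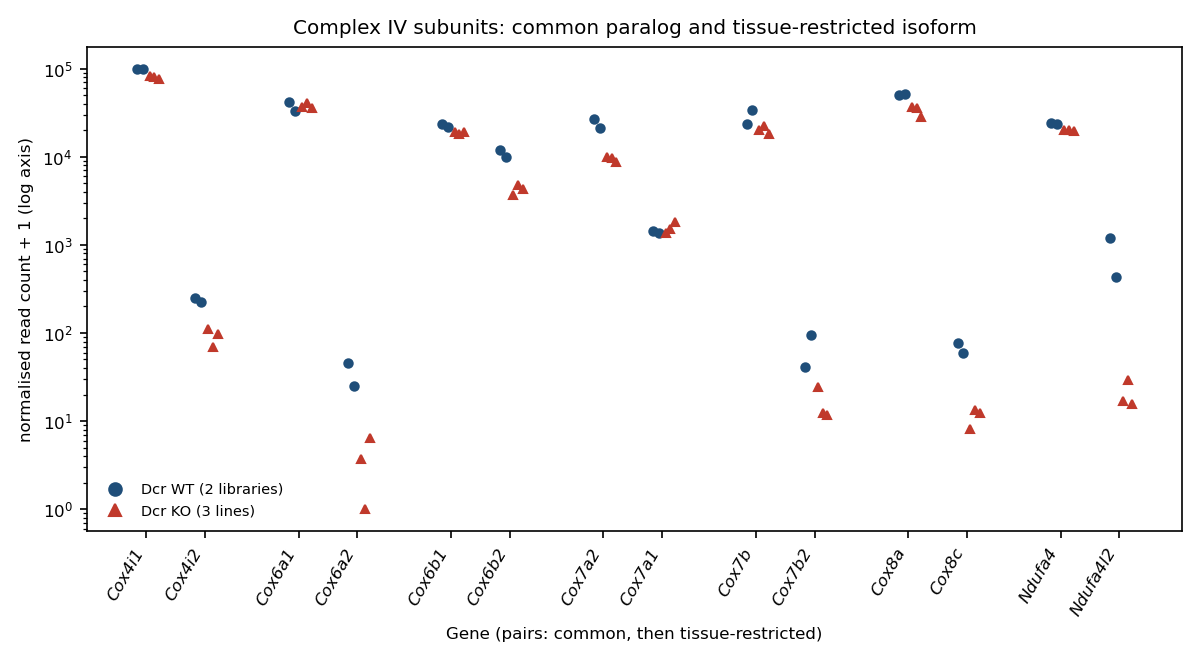
Normalised read count plus 1 on a log axis for 7 pairs of a common complex IV subunit and its tissue-restricted isoform, with a blue circle for each of 2 Dcr WT libraries and a red triangle for each of 3 Dcr KO lines. Ndufa4l2 drops from 1185 and 435 to between 14.5 and 28.3, while Ndufa4 stays between 19521 and 24455 and the Cox7a1 groups overlap.

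Complex V consists of the F1 head that makes ATP, a ring of c subunits turned by protons, a peripheral stalk and further membrane subunits. Of 17 members 10 were lower (58.8%, against 22.9% of coding RefSeq features and 14.8% of all features), with a median of -0.58. Within the F1 head 2 of 5 were lower (40%). The catalytic subunit Atp5b was at 531685 and 417849 in Dcr WT and 580938, 518582 and 446963 in Dcr KO (0.12, adjusted p = 0.626), and Atp5a1 stood at 288528 and 301014 against 317452, 266177 and 274387 (-0.05, adjusted p = 0.827). In both genes the groups overlapped. The small epsilon subunit Atp5e was at 12095 and 17519 against 3501, 2844 and 3499, 4.51-fold lower by means (log2 fold change -2.16, SE 0.19, adjusted p = 8.37e-05). Both wild-type libraries stood far above the highest KO line. The delta subunit Atp5d was at 59447 and 51208 against 34282, 33584 and 29828 (-0.76, adjusted p = 0.00372, or 0.0641 without a variance trend). The gamma subunit Atp5c1 had -0.35 and was not called.

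The mature c subunit is encoded by 3 genes that differ mainly in the import sequence that is cut off. Atp5g3 was at 32862 and 37122 in Dcr WT and 11179, 11058 and 11891 in Dcr KO lines 1, 3 and 4 (log2 fold change -1.62, SE 0.13, adjusted p = 6.72e-05), with tight values in each group. Atp5g1 was at 25561 and 6433 against 3769, 5957 and 4353 (-1.48, adjusted p = 0.0362), and wild-type library 1 decided its size. Without that library its log2 fold change was -0.48 and the call was lost (adjusted p = 0.101), without library 2 it was -2.47, and the call was also lost without any 1 KO line (0.0656 to 0.164). Atp5g2 was at 4925 and 2206 against 2507, 2282 and 2153 (-0.51, adjusted p = 0.199), with overlap. Summed over the 3 genes, the level was 63348 and 45761 in Dcr WT against 17456, 19297 and 18397 in Dcr KO.

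In the peripheral stalk 3 of 4 were lower (75%, against 22.9% of coding RefSeq features). Atp5pb, Atp5j and Atp5o had log2 fold changes of -0.62, -0.58 and -0.57, all without overlap of the groups, and all 3 calls were lost without line 3 (adjusted p = 0.0657, 0.0546 and 0.0749). Atp5h had 0.13 and was not called. Of the 5 other membrane subunits 3 were lower (60%). Atp5j2 was at 17466 and 17570 against 8932, 7937 and 8008 (-1.08, adjusted p = 0.000505), Atp5k at 4263 and 3107 against 1420, 1774 and 2072 (-1.07) and Atp5mpl at 4625 and 6989 against 3033, 2602 and 2915 (-0.999). Without a variance trend the calls of Atp5k and Atp5mpl were lost (adjusted p = 0.0621 and 0.0628). Atp5l had -0.44 and was not called. Atp5md, a small membrane subunit, was at 356 in wild-type library 1 and 3208 in library 2, on both sides of the KO lines at 917, 671 and 742.

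**Figure D3:**
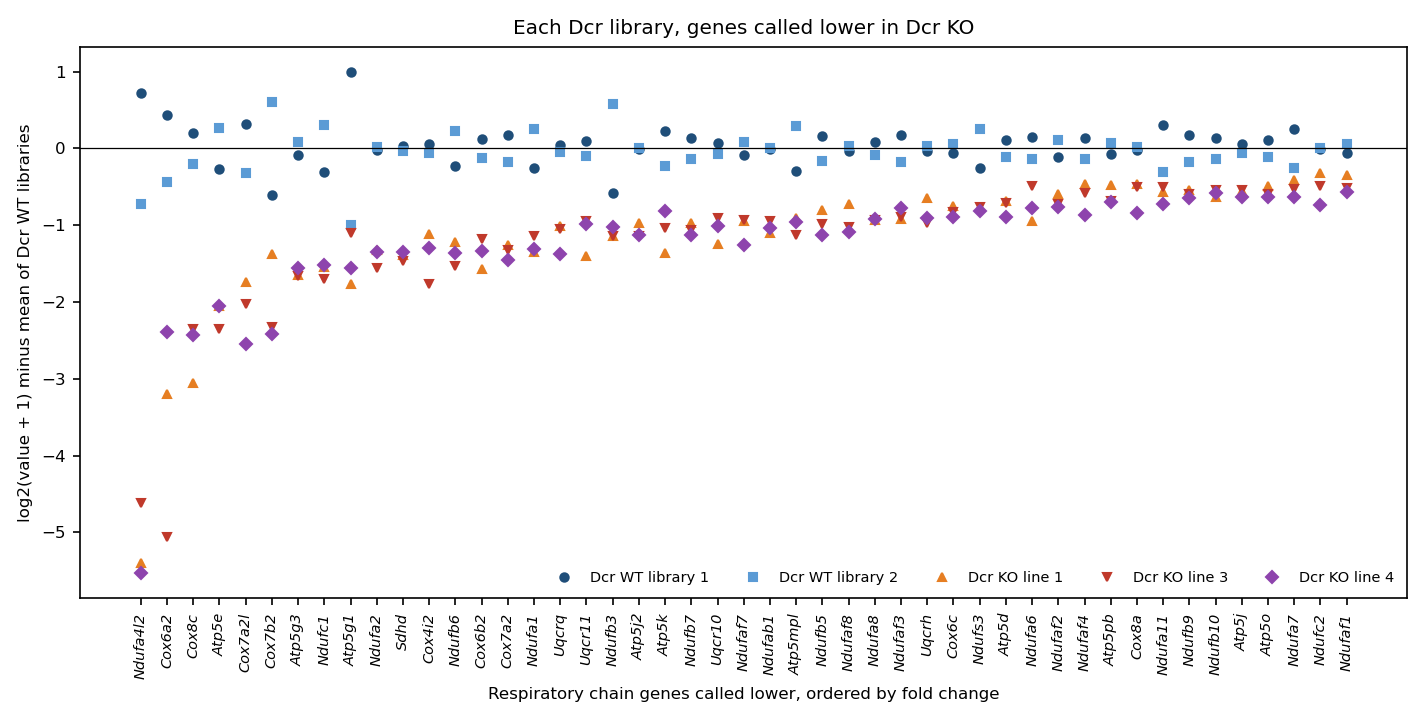
Log2(value + 1) of each Dcr library minus the mean of the 2 wild-type libraries, for the 47 genes called lower, ordered by fold change. Blue symbols are Dcr WT libraries, the other colours are Dcr KO lines, and the wild-type libraries lie farthest apart for Atp5g1 (25561 and 6433).

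The Dcr KO lines differed little among themselves. The highest line was a median of 1.17 times the lowest over the members, and the higher wild-type library 1.22 times the lower. Over coding RefSeq features with a mean of at least 1000 these medians were 1.18 and 1.18. Line 1 was the highest KO line for 54 of 92 members, line 3 for 25 and line 4 for 13. The median log2 difference from the wild-type mean was -0.49 in line 1, -0.54 in line 3 and -0.66 in line 4. In 10 members the wild-type libraries were more than 2-fold apart, namely Ndufb11, Ndufb3, Ndufb4, Ndufv2, Cox7c, Cox7b2, Ndufa4l2, Atp5g1, Atp5g2 and Atp5md. Of the 47 calls, 30 held in every fit that left out 1 library and 17 were lost in at least 1. RefSeq names a pseudogene after 10 members (Atp5c1, Atp5k, Atp5l, Atp5pb, Cox5b, Cox7c, Ndufa12, Ndufab1, Ndufs5 and Uqcrh), and reads from such copies cannot be told apart here.

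Genes outside the complexes that serve them were read from lists of assembly factors and carriers, regulators and citric acid cycle enzymes. Of 37 assembly factors and carriers found, 18 were lower and 1 was higher, with a median of -0.54, against 22.9% lower and 20.9% higher over coding RefSeq features. Without line 3 or without line 4 the lower count was 9, and without a variance trend it was 7, with 0 higher. Timmdc1 and Nubpl, which assemble complex I, had log2 fold changes of -1.38 and -1.29 (adjusted p = 0.000338 and 0.000717). Pet100, for complex IV, had -1.34, Sdhaf3, for complex II, -1.06, and Uqcc2 and Uqcc3, for complex III, -1.04 and -0.98. Cox17, a copper chaperone, was at 6257 and 8622 in Dcr WT and 3638, 3987 and 4623 in the KO lines (-0.85, adjusted p = 0.00722). The gene that rose was Tmem126b, a complex I assembly factor, at 3331 and 2906 against 4749, 4600 and 5148 (0.63, adjusted p = 0.0113). The electron carrier Cycs, cytochrome c, had 0.27 and was not called. Cyc1, the cytochrome c1 subunit of complex III that the name rule leaves out, was lower by -0.47, a call lost without wild-type library 1 (-0.32, adjusted p = 0.152) or any 1 KO line (0.0671 to 0.161).

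Of 14 regulators of mitochondrial genes 1 was lower and 1 was higher (7.14% each, against 22.9% and 20.9% of coding RefSeq features). Tfam, which packages and transcribes mitochondrial DNA, was at 11018 and 13883 in Dcr WT against 6531, 6054 and 5982 in Dcr KO (-1.0, SE 0.15, adjusted p = 0.00135). Tfb2m, a mitochondrial transcription factor, was at 1694 and 1287 against 2894, 2759 and 2282 (0.83, adjusted p = 0.00916), a call lost without line 1 (0.0542), line 3 (0.0516) or a variance trend. Nrf1, Gabpa and Yy1, which bind the motifs printed above, had 0.15, 0.35 and 0.12, and none was called. Of 13 citric acid cycle enzymes 4 were higher and 1 was lower, against 20.9% and 22.9% of coding RefSeq features. The higher genes were Suclg1 (0.59), Mdh2 (0.51), Sucla2 (0.49) and Cs (0.49), the citrate synthase, which was at 98237 and 93636 against 151971, 133103 and 119638. All 4 calls were lost without line 1 (adjusted p = 0.0583 to 0.115) or line 3 (0.0685 to 0.134), Sucla2 also without line 4 (0.0507) or wild-type library 1 (0.0510), and Mdh2 and Cs also without wild-type library 2 (0.0580 and 0.0506). Without a variance trend 0 of the 13 was called. Idh3a was lower by -0.46, a call lost without wild-type library 1 (0.0514) or any 1 KO line (0.0590 to 0.118).

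Other complexes of many small abundant subunits were read the same way. Of 84 cytosolic ribosomal protein genes 48 were lower and 5 higher, with a median of -0.80. Of 77 mitochondrial ribosomal protein genes 41 were lower and 2 higher, with a median of -0.56. Of 47 proteasome subunit genes 12 were lower (25.5%, against 22.9% of coding RefSeq features) and 4 higher, with a median of -0.24. Without line 3 the lower counts of these 3 sets were 33, 26 and 5, without line 4 they were 32, 29 and 5, and without a variance trend 18, 15 and 3. The lower share of the respiratory chain genes, 51.1%, thus lay between those of the proteasome (25.5%) and of the ribosomal proteins (57.1% cytosolic and 53.2% mitochondrial). No difference between these sets was tested.

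**Figure D4:**
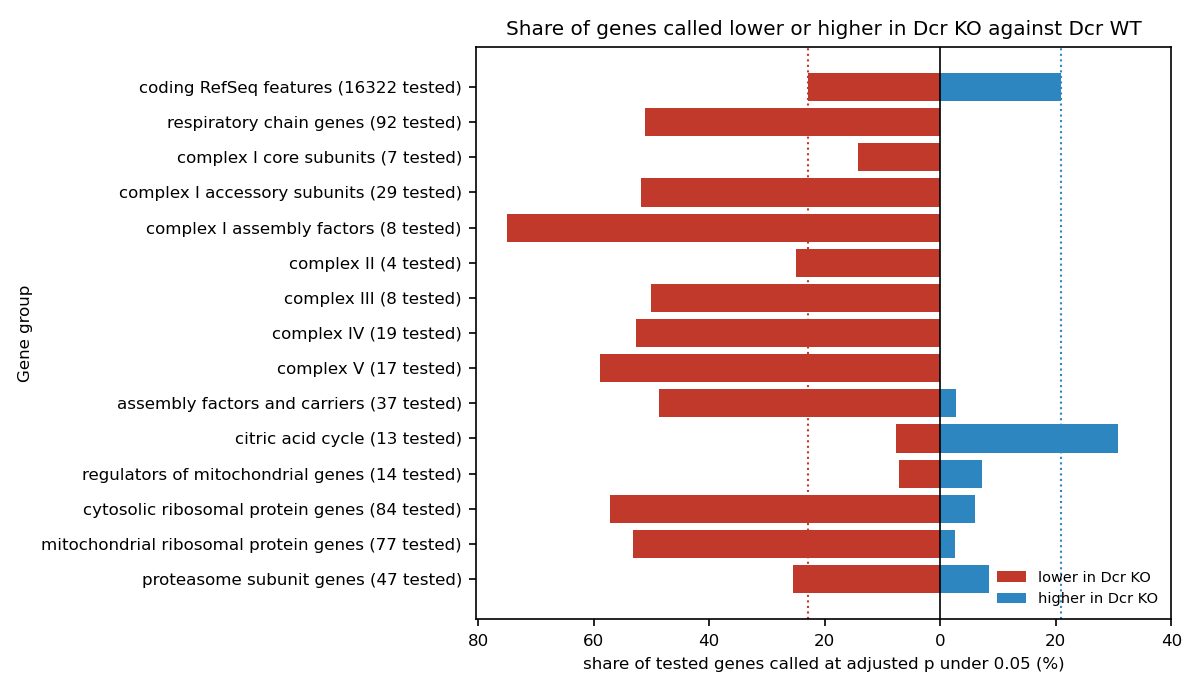
Share of tested genes called lower (red, to the left) or higher (blue, to the right) in Dcr KO against Dcr WT, by gene group, with dotted lines at the shares over coding RefSeq features, 22.9% and 20.9%. The respiratory chain reaches 51.1% lower and 0% higher. Complex I core subunits, citric acid cycle enzymes and regulators of mitochondrial genes fall below the dotted line on the lower side.

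The same genes were also read in the cMyc pair, and whether loss of cMyc has a part in the Dcr KO changes was not tested. Myc itself was at 470 in cMyc flox and 10.9 in cMyc KO, a ratio of 0.0231 (95% counting interval 0.0119 to 0.0408). In the Dcr libraries Myc was lower too, at 10984 and 7478 in Dcr WT and 1253, 1054 and 443 in Dcr KO (log2 fold change -3.44, adjusted p = 0.000289). With 1 library per group there is no replicate check and no test. Intervals are exact, at 95%, and cover counting error only. Of 92 members 90 had enough reads to be compared, while Cox6a2 was at 0 in both libraries and Cox8c had 1 read in each.

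Hardly any member moved past 1.5-fold in cMyc KO. The count was 1 higher and 0 lower of 90, against 9.01% and 5.54% of coding RefSeq features and 10.9% and 12.1% of all features compared. These backgrounds hold every feature with a value of 1 or more in both libraries. They thus include features with few reads, whose ratios can pass 1.5-fold by counting error. No background of like level was made, so the difference in share was not tested. The median log2 ratio was 0.13, against 0.12 over coding RefSeq and 0.07 over all features. A ratio above 1 was found in 64 of 90 members, 9316 of 14626 coding RefSeq features and 14196 of all 25670 features compared. With libraries scaled to equal totals the median became -0.01, so the sign of the median rests on the scaling. The gene past the fold was Atp5g1, at 1949 in cMyc flox and 3224 in cMyc KO, a ratio of 1.65 (1.56 to 1.75). With equal totals its ratio was 1.5001, at the limit and no longer counted on the log2(value + 1) scale, and the gene counted was Cox7b, lower at 0.640.

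By complex the cMyc medians on the log2 scale were 0.22 for complex I, 0.02 for its assembly factors, 0.19 for complex II, 0.15 for complex III, 0.05 for complex IV and 0.13 for complex V. In complex I the highest ratios were Ndufv3 at 1.47 (1.32 to 1.64) and Ndufs6 at 1.46 (1.26 to 1.69), and the lowest included Ndufs1 and Ndufc1, the latter at 0.887 (0.758 to 1.04). Among the assembly factors Ndufaf8 stood at 1.37 (1.13 to 1.67) and Ndufaf4 at 0.813 (0.650 to 1.02). Complex II ranged from 1.01 (0.943 to 1.07) for Sdhd to 1.21 (1.13 to 1.31) for Sdhb. In complex III, Uqcr10 went from 822 to 1174, a ratio of 1.43 (1.31 to 1.56), and Uqcr11 had 1.39 (1.17 to 1.65), while Uqcrb had 0.938 (0.832 to 1.06). Complex IV held the lowest ratios of all, with Cox7b at 1807 against 1276, or 0.706 (0.657 to 0.758), and Ndufa4 at 1835 against 1385, or 0.755 (0.704 to 0.809). Cox6a1 and Cox5a had 1.37 (1.31 to 1.44) and 1.36 (1.27 to 1.47). In complex V, Atp5g3 followed Atp5g1 with 1.25 (1.16 to 1.35), and Atp5mpl was lowest at 0.821 (0.738 to 0.912).

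Of the 45 members called lower in Dcr KO and compared in both, 33 had a cMyc ratio above 1. So had 64 of all 90 members and 9316 of 14626 coding RefSeq features. The median log2 ratio of the 45 called lower was 0.14, against 0.11 for the 45 that were not called. Sdhd had a log2 fold change of -1.40 in Dcr KO and a log2 ratio of 0.01 in cMyc KO. Cox7a2l had -2.11 and 0.13, Atp5e -2.16 and 0.31, Atp5g3 -1.62 and 0.32, and Ndufa4l2 -5.18 and 0.14, the last from 28 and 36 reads with a ratio interval of 0.656 to 1.88. Over the 90 members, Pearson's r between both measures was -0.04 and Spearman's rho -0.01, a description across genes that are not independent replicates. The pairs share no library, but they differ in cell line, read type and depth. The cMyc libraries held markers of fibroblasts at a summed level of 1835 in cMyc flox and 3197 in cMyc KO, and 3 of 5 compared were past 1.5-fold higher. These were Col1a1, Col1a2 and Dcn, the last at 2.11 and 7.25 with a ratio interval of 0.686 to 33.2, and their part in these ratios was not tested.

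**Figure D5:**
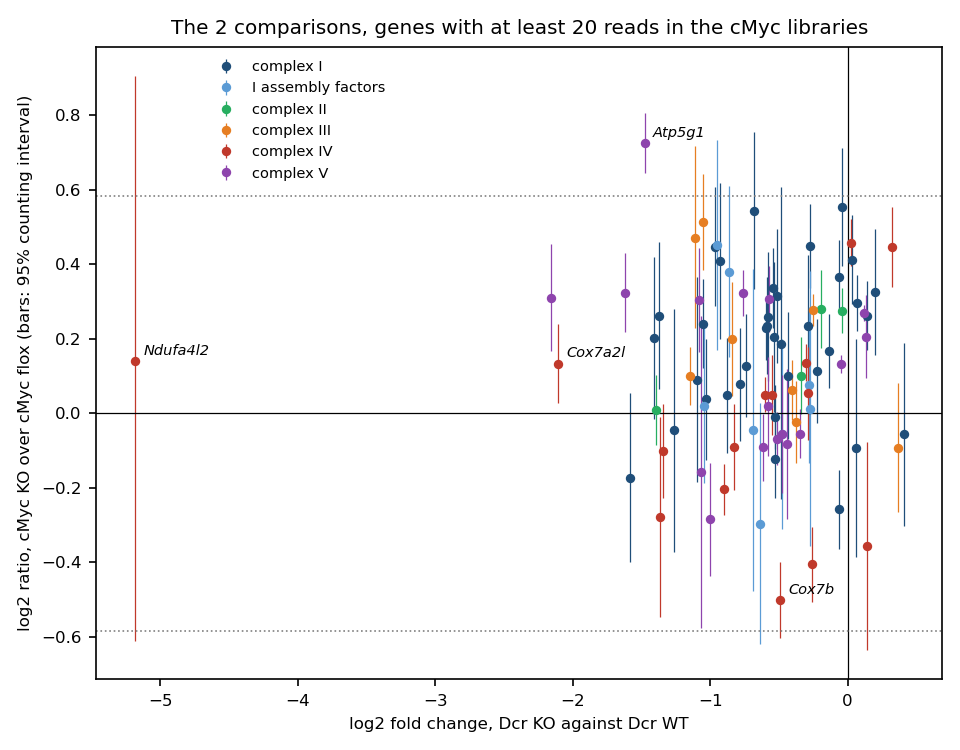
Log2 fold change in Dcr KO (horizontal) and log2 ratio in cMyc KO (vertical, bars are 95% counting intervals) for the 88 members with at least 20 reads in the cMyc libraries, coloured by complex, with dotted lines at 1.5-fold. Atp5g1 lies above the upper line at a ratio of 1.65, and Cox7b, the lowest at 0.706, stays within the lower one.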

How the data were processed

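RNA libraries of 7 samples were used, and 4 chromatin samples were left out. The authors deposited a normalised signal per feature, 1 table for Dcr and 1 for cMyc. The submitters' processing notes name TopHat, Bowtie, DESeq and mm9, without role or version, and no source used here gives the gene models or the counting tool. In the 7 deposited signal columns, 100% of values equalled a whole number of reads (within 0.01 read in the Dcr table and 0.006 value units in the cMyc table), so reads were recovered for count tests, intervals and depth. Of the value columns, 0 were tied to no sample. No sentence on strand in counting was found, so overlapping genes are uncertain.

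RefSeq identifiers were given symbols from GRCm38.p6, which matched 19362 of 19683 coding RefSeq features for Dcr and 16246 of 16484 for cMyc. Because lengths of transcripts were not given, levels of different genes were not compared per length. Dcr KO and Dcr WT were compared with limma 3.58.1 (empirical Bayes with trend, R 4.3.3) on log2(value + 1), over features reaching a value of 1 in 2 or more libraries, with Benjamini-Hochberg adjustment and a threshold of 0.05. Folds on this scale understate changes of low genes. edgeR 4.0.16 and DESeq2 1.42.0 on recovered reads, other pseudocounts (0.1 and 10), filters and scalings, and leaving out each library were alternatives. On simulated data limma recovered 78% of genes changed by 1 on the log2 scale and 100% of those changed by 2, for Dcr KO against Dcr WT over 48942 features. The changed features, 100 of each size, were drawn only from those above a minimum mean level. All simulated features had 1 fixed dispersion, whereas the spread of the members varied, so these rates need not hold for them. cMyc ratios came from 1 library per group and were read against a 1.5-fold limit.

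Genes named are all members called lower, the 2 largest changes per complex in each direction and comparison among genes above the median level, every tissue-restricted isoform with its common paralog, and Dicer1 and Myc. Of the members, 1 is counted but not reported here by name. Other genes given were chosen after their values were seen. The members, lists and tests were chosen with earlier results of these data known.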

Additional observations from a re-analysis of the deposited data

How the results depend on the processing

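Members called lower numbered 47 as reported, 51 in edgeR and 52 in DESeq2, 60 with equal totals, 44 with equal upper quartiles, 43 with a pseudocount of 0.1 and 24 without a variance trend. Leaving out 1 library gave 32 to 55 lower and 0 to 3 higher members. Over all features, no trend gave 4243 higher and 3832 lower, and leaving out 1 library gave 3782 to 8022 higher and 3847 to 5935 lower, the lowest without line 3. All 47 genes called lower kept their direction in every setting run. Over the 92 members tested the sign turned in at least 1 setting for 17, none of them among the 47. Of those printed with a value, it turned for Cox6a1 (-0.055 with equal totals, and -0.15 to 0.20 leaving out 1 library), Ndufv3 (0.020 with equal upper quartiles, 4.4e-06 with the coding median ratio, and -0.26 to 0.18 leaving out 1 library), Sdha (0.020 with equal upper quartiles and 0.000463 with the coding median ratio), Ndufs1 (-0.20 to 0.068 leaving out 1 library), Atp5b (-0.053 to 0.29) and Atp5h (-0.0092 to 0.28), the last 2 leaving out 1 library, with the lowest without wild-type library 2. Ndufs8 turned to -0.049 with equal totals and Atp5a1 to 0.015 with equal upper quartiles, Ndufv1 to 0.051 and Ndufa10 to -0.014 without wild-type library 2, Atp5g2 to 0.066 without library 1, and Atp5md to 1.11 without library 2 (adjusted p = 0.00302). Leaving out wild-type library 1 moved the complex I median to -0.26.

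For cMyc, equal totals left 0 members past 1.5-fold higher and 1 lower, with a median of -0.00794 over the members, -0.12 for complex I assembly factors, -0.091 for complex IV and -0.0083 for complex V. The coding median ratio gave 1 lower, -0.10 for the assembly factors and -0.066 for complex IV, and equal upper quartiles -0.031 for the assembly factors. At 1.2-fold 28 members were higher and 6 lower, and at 2-fold 0 were higher. The cause of these changes was not tested. Counting every RefSeq row per gene changed nothing, since 0 members had more than 1. No paired analysis was possible because the Dcr groups share only 1 replicate number. With 2 and 3 libraries, and 1 per cMyc group, small changes were not detectable, and cMyc intervals had a median half-width of 0.14 on the log2 scale.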
